A study of Homo sapiens with 14 samples.

Results

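The respiratory chain and the ATP synthase are built from a large set of subunits encoded in the nucleus and a small set encoded in mitochondrial DNA. The nuclear-encoded set was taken here by gene symbol: the NDUFA, NDUFB, NDUFC, NDUFS and NDUFV families with NDUFAB1 for complex I, SDHA to SDHD for complex II, symbols beginning with UQCR for complex III, COX4 to COX8 for complex IV and ATP5 for complex V. NDUFA4 and its isoform NDUFA4L2 fall under the NDUFA symbols but are counted with complex IV, where the NDUFA4 protein belongs. No measured value enters this rule, but it was set with earlier results of these data known. The rule found 95 identifiers with 89 symbols among the 19726 genes of either count table, and 85 of these identifiers were in both tables. In the table of the OmoMYC experiment 88 of 17810 genes were members and 79 passed the filter on low counts, which left 13803 genes to test. In the table of the parental experiment 92 of 19143 genes were members and 86 of the 14470 tested genes were.

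CHP-134 is an established MYCN-amplified human neuroblastoma line. In the OmoMYC experiment, a line carrying an inducible lentiviral OmoMYC transgene was set against a line carrying EGFP from the same kind of vector. OmoMYC is derived from the MYC leucine zipper region and interferes with the pairing of MYC proteins and MAX. The lines were engineered and selected with G418 separately, and both received 1 µg/ml doxycycline for 3 days, so the agent was shared by the controls and a difference between the lines cannot be told apart from a difference made by the transgene. In the parental experiment, unmodified CHP-134 cells received 500 nM dTAG47, a compound that recruits tagged proteins for degradation, or DMSO for 18 h. These cells have no tagged protein, and the comparison asks what the compound does alone. There were 3 replicates each of EGFP and OmoMYC and 4 each of DMSO and dTAG47, described as biological replicates.

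Libraries were made from total RNA after removal of ribosomal RNA. They held 28060817 to 38358128 counts in the OmoMYC experiment and 40861430 to 53451641 in the parental one. Reads of the transgene were counted at MYC, which went from 0.568 to 0.689 CPM (counts per library total after TMM scaling) in EGFP to 513 to 527 CPM in OmoMYC. All 10 adrenergic neuroblastoma markers were present, with a summed level of 3845 to 4549 CPM in EGFP and 3830 to 4030 CPM in OmoMYC. Much of this sum is MYCN, since MYC and MYCN together were at 2409 to 2901 CPM in EGFP. Single markers did differ with OmoMYC, at log2 fold changes from -0.56 to 1.66. By the FDR threshold given below, 4 were higher and 2 lower, beside 27.3% and 25.7% of all tested genes. Of the 8 mesenchymal or Schwann cell markers, the summed level was 338 to 353 CPM in EGFP and 258 to 275 CPM in OmoMYC. The sum of the 9 muscle markers in this table was 35.7 to 45.7 CPM in EGFP and 43.2 to 46.7 CPM in OmoMYC, and the highest sums of the 2 blood and 3 germ line markers in it were 0.551 and 2.24 CPM. Their part in the results was not tested.

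Complexes I and II pass electrons from NADH and succinate to ubiquinone, complex III passes them on to cytochrome c, and complex IV passes them to oxygen. Complexes I, III and IV pump protons as they do so, and complex V, the ATP synthase, uses the proton gradient to make ATP. Factors that bind the promoters of these genes in many tissues include NRF1, the ETS factor GABPA and YY1, and the MYC proteins bind the E-box CACGTG. NRF1 here is the nuclear respiratory factor, not the antioxidant regulator of similar name.

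Of the members, 71 in the OmoMYC table and 75 in the parental table were subunits of the 5 complexes. The others were tissue isoforms, associated proteins, processed or duplicated copies, readthrough genes and second identifiers of a symbol. ATP5L, COX7B, NDUFA6 and the readthrough NDUFC2-KCTD14 were listed in the parental table only, and COX6A2 in the OmoMYC table only. NDUFA3 was listed in the OmoMYC table only under 2 other identifiers with at most 1 count. NDUFB11, an accessory subunit of the complex I membrane arm, was listed at 0 in all 6 libraries of the OmoMYC experiment and at 86.1 to 102 CPM in the 8 parental libraries. ATP5SL, an assembly factor of complex I despite its symbol, was at 0 or 1 count in the first table and at 2602 to 3357 counts in the second. The processing that made these entries differ between the tables is not given in the sources used here.

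The promoters of 6 subunits are shown, 5 because they hold a motif of these factors and NDUFB6 because it holds none, and they come from subunits that differ in direction with OmoMYC. They are slices of the RefSeq promoter (build GRCh38.p14), 5′ to 3′ on the gene's strand, and capitals mark a motif match. The E-box of ATP5G1 (chr17:48892637-48892796, plus strand) lies 4 to 9 bases into the gene. NDUFB4 (chr3:120596166-120596337, plus strand), ATP5C1 (chr10:7788027-7788176, plus strand) and UQCRFS1 (chr19:29213152-29213301, minus strand) hold the NRF1 motif, spelled GCGCA and GCGC with 1 base between them, in UQCRFS1 on the opposite strand. UQCRH (chr1:46303548-46303697, plus strand) holds the ETS motif CCGGAAG on the opposite strand, and NDUFB6 (chr9:32573160-32573309, minus strand) holds none of the 4 motifs searched.
ATP5G1: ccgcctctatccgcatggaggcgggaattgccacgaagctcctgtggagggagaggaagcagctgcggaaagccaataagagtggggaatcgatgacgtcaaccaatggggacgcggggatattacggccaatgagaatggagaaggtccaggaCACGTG
NDUFB4: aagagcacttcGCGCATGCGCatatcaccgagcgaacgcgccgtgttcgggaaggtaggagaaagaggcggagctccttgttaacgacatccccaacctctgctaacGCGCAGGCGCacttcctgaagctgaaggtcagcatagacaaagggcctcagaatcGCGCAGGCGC
ATP5C1: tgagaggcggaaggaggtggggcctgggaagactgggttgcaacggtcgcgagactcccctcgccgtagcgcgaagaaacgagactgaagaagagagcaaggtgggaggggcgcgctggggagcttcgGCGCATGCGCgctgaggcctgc
UQCRFS1: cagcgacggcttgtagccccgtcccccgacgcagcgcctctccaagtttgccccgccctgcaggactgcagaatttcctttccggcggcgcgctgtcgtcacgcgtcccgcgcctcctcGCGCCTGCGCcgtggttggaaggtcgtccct
UQCRH: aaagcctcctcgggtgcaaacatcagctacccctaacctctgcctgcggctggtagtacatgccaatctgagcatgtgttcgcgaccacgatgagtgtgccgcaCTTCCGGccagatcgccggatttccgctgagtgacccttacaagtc
NDUFB6: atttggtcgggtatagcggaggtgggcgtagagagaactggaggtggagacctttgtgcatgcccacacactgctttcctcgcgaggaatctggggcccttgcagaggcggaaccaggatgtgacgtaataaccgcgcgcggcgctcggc

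With OmoMYC, 27 of the 70 tested subunits were called lower and 8 higher than with EGFP, and 35 were not called. A gene is called where its p-value from edgeR's quasi-likelihood test, adjusted over all tested genes by Benjamini and Hochberg (FDR), is under 0.05. Of all tested genes, 25.7% were called lower and 27.3% higher. The median log2 fold change of the subunits was -0.18 against 0.01 for all tested genes, and 46 of 70 were below 0 against 48.9% of all genes. Called subunits had a median absolute log2 fold change of 0.32 against 0.50 for all called genes, and 4 of the 35 called subunits were past 1.5-fold. In 24 subunits every OmoMYC library was below every EGFP library and in 12 every one was above, beside 30.3% and 32.0% of all tested genes. In bulk RNA, fewer cells of a type and less RNA per cell cannot be told apart.

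**Figure D1:**
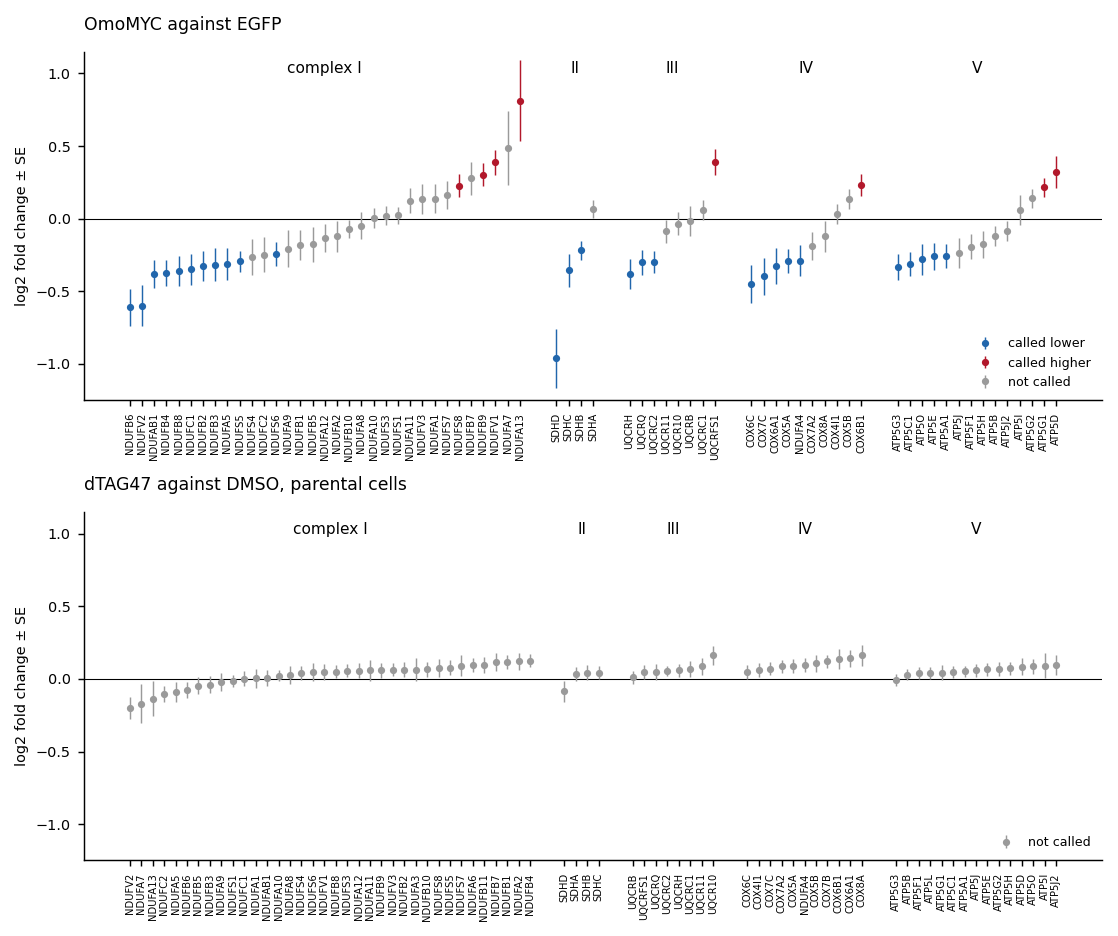
Log2 fold change of the tested subunits but 1 (points, coloured by call, bars are ± SE) with OmoMYC against EGFP (top) and with dTAG47 against DMSO (bottom), by complex. With OmoMYC the complex medians run from -0.29 in complex II to -0.06 in complex III, while with dTAG47 they lie between 0.04 and 0.10 and no subunit was called.

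The direction of the OmoMYC differences followed the GC content of the transcripts. Over the 70 subunits the log2 fold change and the GC content of the canonical transcript had a Pearson r of 0.62 and a Spearman rho of 0.59, and over 13499 tested genes r was 0.33. These values are across genes that share the same 6 libraries. Of the 24 subunits with a GC content under 45%, 13 were called lower and 1 higher, with a median log2 fold change of -0.28. All tested genes under 45% were called lower in 46.5% and higher in 11.03%, with a median of -0.24. Of the 30 subunits at 50% or more, 4 were called lower and 7 higher, with a median of 0.07, beside 8.82% and 43.1% of such genes and a median of 0.24. The median GC content was 45.4% for subunits called lower, 57.9% for those called higher and 48.8% for all tested genes.

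Replicates of the same group also differed along GC content. EGFP replicate 1 had the subunits at a median log2 ratio of 0.16 to the other EGFP libraries, and this ratio ran against GC content across the subunits (r = -0.67). EGFP replicate 3 had a median ratio of -0.18 that ran with GC content (r = 0.69). In OmoMYC, replicate 2 ran against it (r = -0.59) and replicate 3 with it (r = 0.63). When a trend on GC content and transcript length was removed from each library, 12 subunits were called lower and 18 higher, beside 28.3% and 30.3% of all tested genes, and r over the subunits was -0.10. The median log2 fold change was then 0.03, beside 0.02 for all tested genes. The correction removes a difference between the groups that follows GC content whatever its source, so corrected values are given beside the uncorrected ones for the members described below.

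**Figure D2:**
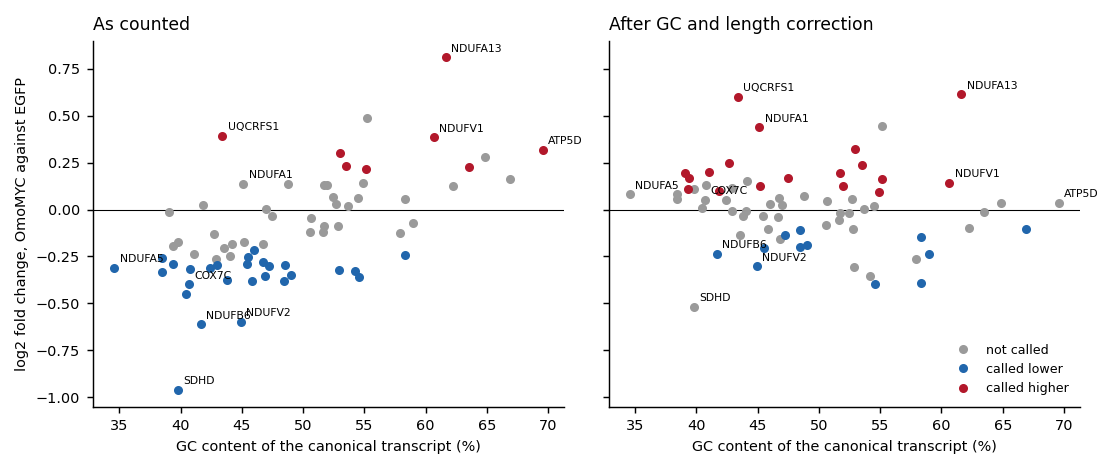
Log2 fold change of each tested subunit with OmoMYC against EGFP by the GC content of its transcript (%), before (left) and after (right) the correction for GC content and transcript length, coloured by call in that fit. Before correction the points rise with GC content (r = 0.62), and after it they do not (r = -0.10).

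After the correction 9 of the 27 subunits called lower were still called lower. These were NDUFB6, NDUFV2, NDUFAB1, NDUFB8, NDUFC1, NDUFS5 and NDUFS6 of complex I, UQCRQ of complex III and ATP5A1 of complex V. The subunits called higher both ways were NDUFA13, NDUFB9 and NDUFV1 of complex I, UQCRFS1 of complex III, COX6B1 of complex IV and ATP5G1 of complex V, which makes 6 of 8. Among those no longer called, NDUFB2 went from -0.33 to -0.35 (corrected FDR = 0.131) and COX6A1 from -0.32 to -0.31 (corrected FDR = 0.243), while in ATP5C1, COX6C and UQCRC2 the fold went to 0.05, 0.01 and -0.01. Other subunits were called only after the correction. These include NDUFA1 (0.44, FDR = 1.24e-06) and 3 of 4 peripheral stalk genes of complex V, called higher, and NDUFB10 (-0.23, FDR = 0.000433), called lower.

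Leaving out single libraries removed calls as well. Of the 27 subunits called lower, 13 kept the call without any 1 library, and of the 8 called higher only NDUFV1 and UQCRFS1 did. Without OmoMYC replicate 3, 12 subunits called lower and 6 called higher lost the call, NDUFB9 (FDR = 0.0505), ATP5A1 (FDR = 0.0666) and COX6C (FDR = 0.0525) among them. Without OmoMYC replicate 1 the numbers were 8 and 5, and without EGFP replicate 2 they were 8 and 3. NDUFA5, NDUFB3, SDHC, COX6A1, NDUFA4 and ATP5O lost the call without either OmoMYC replicate 1 or 3. So did NDUFA13, NDUFS8, COX6B1, ATP5D and ATP5G1 among those called higher. Without EGFP replicate 1 the log2 fold changes of SDHC, COX7C, COX6A1, ATP5O, NDUFS8, ATP5D and NDUFA13 moved to -0.22, -0.26, -0.18, -0.18, 0.14, 0.17 and 0.47. Of these, COX6A1 (FDR = 0.0575), ATP5O (FDR = 0.0711) and NDUFS8 (FDR = 0.0559) were not called.

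In complex I, 11 of 34 tested subunits were called lower and 4 higher, with a median log2 fold change of -0.13 that became 0.01 after correction. The 7 core subunits, which carry the flavin, the iron-sulfur clusters and the quinone site, had a median of 0.13 and a median GC content of 53.7%. The 27 accessory subunits, which surround and stabilise the core, had a median of -0.18 and a median GC content of 48.5%. After correction the medians were 0.00 and 0.02. By module, 3 of 10 subunits of the electron input module fell and 1 rose, 1 of 6 in the quinone module fell and 1 rose, and 7 of 18 in the membrane arm fell and 2 rose. Counts by module, and by complex here and below, are to be read beside those of all tested genes. Of these, 25.7% were called lower and 27.3% higher, or 28.3% and 30.3% after correction.

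NDUFV1 and NDUFV2, the neighbouring core subunits at the site of NADH oxidation, moved in opposite directions. NDUFV1, which binds the flavin, was at 135, 160 and 172 CPM in EGFP and at 206, 195 and 209 CPM in OmoMYC. The groups did not overlap, and the log2 fold change was 0.39 ± 0.09 (SE, FDR = 0.00446), or 0.14 after correction (FDR = 0.00195). NDUFV2 (chromosome 18, 9102628 to 9134343 in hg19) was at 9.21, 7.74 and 6.48 CPM in EGFP and 5.25, 4.91 and 5.36 CPM in OmoMYC. Its log2 fold change was -0.60 ± 0.14 (FDR = 0.0048) and -0.30 after correction (FDR = 0.0261). NDUFV2 was the less abundant of the pair, at 9.11 RPKM (CPM per length of the canonical transcript) in EGFP against 99.8 for NDUFV1, and 28.4% of its exon length overlaps other genes.

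Other core subunits moved little. NDUFS8, an iron-sulfur subunit, was called higher at 0.23 (FDR = 0.0317), but its corrected value was -0.01. NDUFS1 and NDUFS7 were not called, at log2 fold changes of 0.02 and 0.16. Corrected, NDUFS1 was called at 0.10 (FDR = 0.031) and NDUFS7 at -0.11 (FDR = 0.0437), which turned the sign of NDUFS7.

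Among the accessory subunits, NDUFB6 of the membrane arm (chromosome 9, 32552997 to 32573160, minus strand, hg19) had the largest called fall in complex I. It was at 47.1, 37.9 and 32.1 CPM in EGFP and at 26.2, 23.9 and 26.6 CPM in OmoMYC, without overlap. The log2 fold change was -0.61 ± 0.13 (FDR = 0.00247) and -0.23 after correction (FDR = 0.0108). NDUFB4, whose promoter holds the NRF1 motif 3 times, was at 96.4, 100.1 and 87.5 CPM against 79.9, 73.6 and 65.7 CPM and had a log2 fold change of -0.37 (FDR = 0.00513) that was -0.03 after correction. NDUFAB1, the mitochondrial acyl carrier protein, was at -0.38 (FDR = 0.00618) and -0.20 corrected. NDUFB8 was at -0.36 (FDR = 0.0118) and -0.40 corrected, with 48.5% of its exon length shared with other genes.

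NDUFB9 rose from 91.5, 93.9 and 80.01 CPM to 110, 107 and 111 CPM, a log2 fold change of 0.30 (FDR = 0.00724) and 0.32 after correction. NDUFA13, also known as a cell death regulator, had the largest rise of the subunits at 0.81 ± 0.28 (FDR = 0.0305) and 0.62 after correction. It rests on 32 to 113 counts, at 1.01, 2.11 and 2.65 CPM in EGFP against 3.85, 2.78 and 3.49 CPM in OmoMYC. Of its exon length, 21.0% overlaps other genes.

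**Figure D3:**
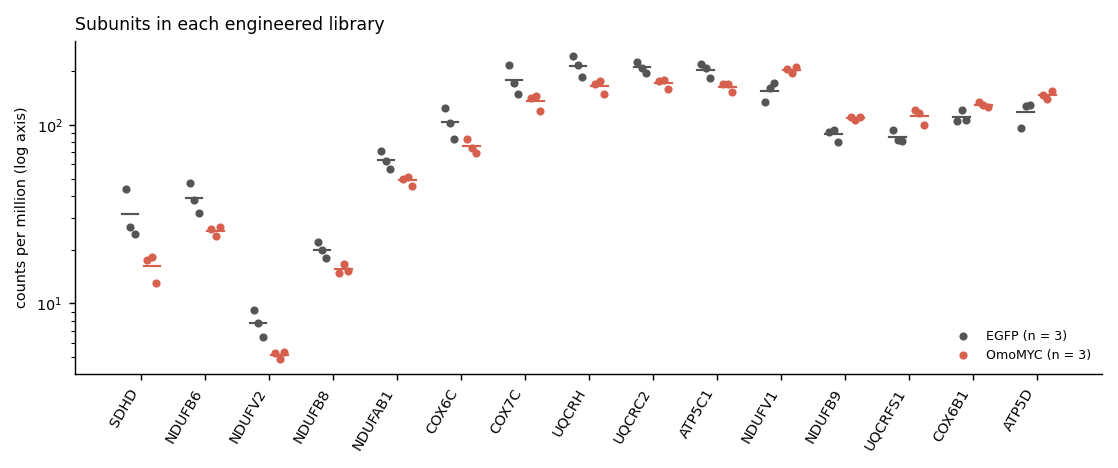
Level of selected subunits in each library (CPM, log axis), by group, with the group mean (lines). SDHD, NDUFB6 and NDUFV2 lie lower in all 3 OmoMYC libraries than in the 3 EGFP libraries, and EGFP replicate 1 is the highest library for SDHD at 43.8 CPM.

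Complex II is built of the catalytic subunits SDHA and SDHB and the membrane anchors SDHC and SDHD, and 3 of its 4 members fell. SDHD (chromosome 11, 111957548 to 111990739, hg19) had the largest fall of all subunits. It was at 43.8, 26.9 and 24.5 CPM in EGFP and at 17.6, 18.2 and 13.1 CPM in OmoMYC. The groups did not overlap, but EGFP replicate 1 stood well above the other EGFP libraries. The log2 fold change was -0.96 ± 0.20 (FDR = 0.00287), and without EGFP replicate 1 it was -0.67 (FDR = 7.12e-05). After correction it was -0.52 and no longer called (FDR = 0.0862). The call held in the other 14 alternative fits, the correction with a block for replicate number among them. Of the exon length of SDHD, 11.4% overlaps other genes.

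SDHC was at 92.0, 67.8 and 70.6 CPM against 60.5, 63.6 and 56.01 CPM, a log2 fold change of -0.36 (FDR = 0.0216) and -0.16 corrected (FDR = 0.217), with the same library highest. SDHB, the iron-sulfur subunit, was at 113, 108 and 107 CPM against 97.4, 93.3 and 92.1 CPM, a log2 fold change of -0.22 (FDR = 0.0178) that was 0.03 after correction. SDHA, the flavoprotein, was not called, at 151 ± 4.17 CPM (SD, n = 3) in EGFP and 158 ± 2.09 CPM in OmoMYC. Per length of canonical transcript the EGFP levels were 108 RPKM for SDHB, 58.7 for SDHC, 56.1 for SDHA and 23.7 for SDHD, so SDHD was the least abundant of the 4 transcripts. After correction none of the 4 was called, and the median of the complex went from -0.29 to -0.09.

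In complex III, 3 of 8 subunits were called lower and 1 higher, and the median was -0.06 (corrected -0.05). The catalytic iron-sulfur protein UQCRFS1 (chromosome 19, 29696227 to 29704058, minus strand, hg19) rose from 93.2, 81.9 and 81.6 CPM to 121, 116 and 99.8 CPM. All OmoMYC libraries were above all EGFP libraries, and the log2 fold change was 0.39 ± 0.09 (FDR = 0.00437). After correction the value was 0.60 (FDR = 5.29e-09). UQCRH, the hinge protein at the cytochrome c1 site, was at 243, 216 and 185 CPM against 170, 175 and 150 CPM, a log2 fold change of -0.38 (FDR = 0.00938) and -0.10 corrected. The core proteins differed from each other. UQCRC2 was at -0.30 (FDR = 0.00752), but at -0.01 and no longer called after correction. UQCRC1 was at 0.06 and not called, but was called lower after correction, at -0.14 (FDR = 0.00513). CYC1, the nuclear-encoded cytochrome c1 that the symbol rule left out, was at -0.07 and not called.

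In complex IV, 5 of 10 subunits were called lower and 1 higher, with a median of -0.24. No subunit was called lower after the correction, and 3 were called higher, but COX6A1 stayed at -0.31 and COX8A went from -0.12 to -0.26 (corrected FDR = 0.343). COX6C, one of the small subunits, had the largest called fall, from 124, 102 and 82.8 CPM to 83.1, 74.3 and 69.7 CPM. The lowest EGFP library was just below the highest OmoMYC library, and the log2 fold change was -0.45 (FDR = 0.0146) and 0.01 corrected. COX7C was at -0.40 (FDR = 0.0206) and 0.05 corrected. COX5A was at -0.29 (FDR = 0.0136) and -0.03 corrected, while its partner COX5B was at 0.13, not called, and at 0.19 after correction (FDR = 0.00018). COX6B1, which faces the intermembrane space, was at 105, 120 and 106 CPM against 134, 129 and 126 CPM, a log2 fold change of 0.23 (FDR = 0.0223) and 0.24 corrected. COX4I1, the regulatory subunit, was at 0.03 and not called.

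In complex V, 5 of 14 subunits fell and 2 rose, with a median of -0.18 (corrected 0.05). In the catalytic F1 head, ATP5A1 (alpha) was at 736, 630 and 611 CPM in EGFP and 577, 567 and 512 CPM in OmoMYC, without overlap. Its log2 fold change was -0.26 (FDR = 0.0225), or -0.21 after correction (FDR = 0.00316). ATP5B (beta), at 996 ± 59.1 CPM (SD, n = 3) in EGFP and 951, 934 and 866 CPM in OmoMYC, had a log2 fold change of -0.12 and was not called. ATP5C1 (gamma), the rotating stalk, was at -0.31 (FDR = 0.00783) and at 0.05 corrected. ATP5D (delta) rose by 0.32 (FDR = 0.0291) with 0.04 corrected, and its lowest library was EGFP replicate 1 at 95.6 CPM.

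The c ring of the ATP synthase is made of 1 protein encoded by 3 genes, which did not move alike before the correction. ATP5G1 was at 132, 137 and 141 CPM against 163, 160 and 153 CPM, a log2 fold change of 0.22 (FDR = 0.0167) and 0.16 corrected. ATP5G3 was at 186, 158 and 145 CPM against 131, 133 and 123 CPM, a log2 fold change of -0.33 (FDR = 0.0108) and 0.06 corrected. ATP5G2 was at 0.14 and not called, but was called higher after correction, at 0.10 (FDR = 0.0473). After correction all 3 were above 0. The shares that follow are of uncorrected levels. Per length ATP5G3 made up 11.6% ± 1.65 (SD, n = 3) of the 3 in EGFP and 8.44% ± 0.0719 in OmoMYC, ATP5G1 38.9% and 41.5%, and ATP5G2 49.5% and 50.1%.

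**Figure D4:**
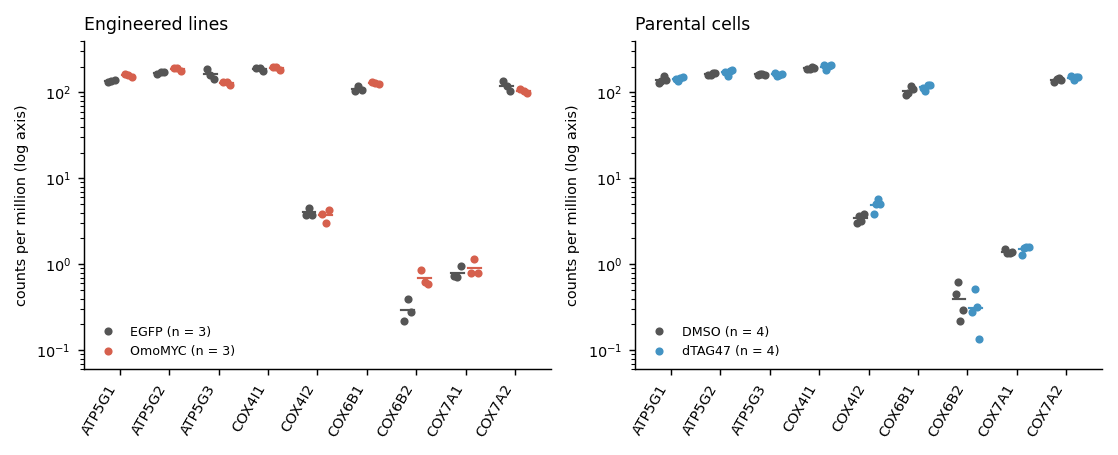
Level (CPM, log axis) of complex IV and c ring genes with isoforms in each library (points), with the group mean (lines), in the engineered lines (left) and parental cells (right). The 3 c ring genes, COX4I1, COX6B1 and COX7A2 lie far above COX4I2, COX6B2 and COX7A1, and the OmoMYC libraries of COX6B2, from 0.592 CPM, lie above the EGFP libraries, up to 0.394 CPM.

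Tissue isoforms of complex IV were low in these cells. COX4I2, the lung form, made up 2.38% of COX4 per length in EGFP and 2.15% in OmoMYC, and was not called at -0.13 (FDR = 0.522). COX6B2, a testis form, was at 0.221, 0.394 and 0.276 CPM against 0.853, 0.623 and 0.592 CPM, a log2 fold change of 1.21 (FDR = 0.0116, corrected 1.03) on 7 to 25 counts per library. It made up 0.165% of COX6B with OmoMYC. COX6A2 of muscle had at most 1 count and COX8C at most 3, so neither was detectable at this depth. COX7A1 of muscle was at 0.20 and NDUFA4L2 at 0.09, both not called, while NDUFA4, the form in use, was at -0.29 (FDR = 0.0389) and 0.11 after correction. COX6A1P2, a processed copy of COX6A1, was at 1.08 (FDR = 0.0153, corrected 0.94), and COX6A1 itself at -0.32 (FDR = 0.0451). Reads of such copies are uncertain, since they can be shared with the parent gene. The remaining tested members, COX7A2L, ATP5S, ATP5L2 and ATP5J2-PTCD1, were not called. COX7A2L, a factor of supercomplex assembly, was at -0.26 (FDR = 0.0579). It was called lower by DESeq2 (-0.28, FDR = 0.0332) and with a block for replicate number (FDR = 0.00552), but higher after correction, at 0.14. ATP5S, which is not a subunit despite its symbol, was at 0.10 and was called at 0.35 after correction.

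In the parental experiment no subunit was called in either direction with dTAG47, where 0.117% of all tested genes were called higher and 0.0415% lower. The adjusted p-values of the 75 subunits ran from 0.673 to 0.993, and DESeq2 called none. At an unadjusted p under 0.05, 6 subunits were higher and 1 lower, beside 3.88% and 3.40% of all tested genes. The log2 fold changes were small, from -0.20 in NDUFV2 to 0.16 in COX8A and UQCR10, and 63 of 75 were above 0 against 49.2% of all genes. The median was 0.06 for the subunits and -0.00 for all genes, with medians by complex of 0.05, 0.04, 0.06, 0.10 and 0.06 from complex I to V. In NDUFB1, NDUFB4 and UQCRC2 every dTAG47 library was above every DMSO library and in 0 subunits every one was below, beside 1.87% and 1.47% of all tested genes.

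SDHD, with the largest fall under OmoMYC, was not called here. It was at 32.5, 31.9, 29.0 and 27.3 CPM in DMSO and at 30.7, 30.6, 27.5 and 25.1 CPM in dTAG47. The groups overlapped and the log2 fold change was -0.08 ± 0.07 (SE, FDR = 0.74). NDUFB4 was at 104, 110, 111 and 113 CPM against 122, 114, 119 and 123 CPM, a log2 fold change of 0.12 (FDR = 0.673). UQCR10, a small subunit of complex III, was at 82.7, 91.7, 103 and 96.9 CPM against 106, 95.2, 106 and 112 CPM, at 0.16 (FDR = 0.673).

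Replicates 1 and 2 of the parental experiment stood apart from replicates 3 and 4, in both groups. The ratio of a library to the others of its group ran against GC content over the subunits in replicates 1 and 2 (r from -0.64 to -0.39) and with it in replicates 3 and 4 (r from 0.50 to 0.63). With a factor for these pairs of replicates, 6 subunits were called higher and 0 lower, beside 2.58% and 2.90% of all tested genes. The subunits called higher were NDUFB4, UQCR10, COX6A1, COX6B1, COX7B and COX8A, at log2 fold changes of 0.12 to 0.16. Within replicates 1 and 2 alone 0 were called in either direction, where 0.0276% of tested genes were called higher and 0.0207% lower. Within replicates 3 and 4 alone 9 were called higher and NDUFA5 lower, where 2.93% and 3.24% of tested genes were called. The fits within replicate pairs have 2 libraries per group.

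COX4I2 had the largest log2 fold change of the members with dTAG47, apart from COX8C at 3 to 20 counts. It was at 3.00, 3.65, 3.22 and 3.82 CPM in DMSO and 3.88, 5.01, 5.79 and 5.04 CPM in dTAG47, and every dTAG47 library was above every DMSO library. The log2 fold change was 0.53 ± 0.12 with an adjusted p of 0.153 in edgeR's test, so it was not called. It was called by DESeq2 (FDR = 0.0252), with the factor for replicate pairs (FDR = 0.00538), and after the GC correction (0.48, FDR = 0.0132). It made up 2.00% of COX4 per length in DMSO and 2.74% in dTAG47.

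The 13 subunits encoded in mitochondrial DNA, which the symbol rule did not take, were mostly higher with OmoMYC. Of these, 10 were called higher and 0 lower, beside 27.3% and 25.7% of all tested genes. Their median on the log2 scale was 0.50. After the correction 8 were called higher with a median of 0.76, beside 30.3% of all tested genes called higher. Their sum was 25612 to 33805 CPM in EGFP and 41148 to 45115 CPM in OmoMYC, while the sum of the nuclear subunits was 8661, 8104 and 7628 CPM against 7801, 7625 and 7197 CPM. By complex the medians were 0.77 in complex I (4 of 7 called), 0.75 for the cytochrome b gene of complex III, 0.34 in complex IV (3 of 3) and 0.30 in complex V (2 of 2). EGFP replicate 1 was low in several of them, with MT-ND6 at 184 CPM against 835 and 827 CPM in the other EGFP libraries. Without it all 13 were called higher with a median of 0.42, without OmoMYC replicate 2 it was 7 and without OmoMYC replicate 1 it was 8. Of all tested genes, 2986 of 13925 and 3077 of 13950 were called higher without these OmoMYC replicates. With dTAG47 the median was 0.04, and none of the 13 was called by edgeR or DESeq2. With the factor for replicate pairs 3 were called higher, beside 2.58% of all tested genes.

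**Figure D5:**
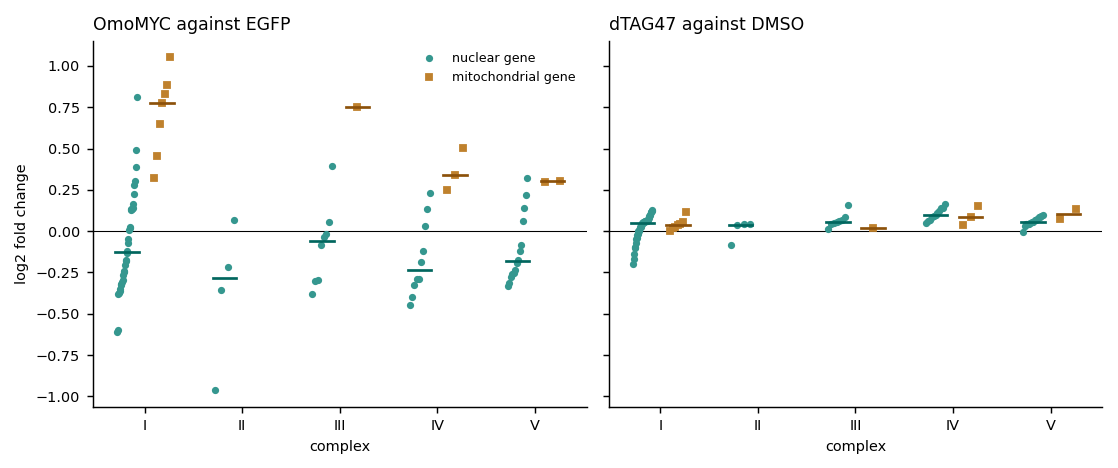
Median log2 fold change of the subunits encoded in the nucleus and in mitochondrial DNA, by complex (lines), with points for the single genes, with OmoMYC against EGFP (left) and dTAG47 against DMSO (right). With OmoMYC, in each complex with both kinds the mitochondrial median lies above the nuclear one, at 0.77 against -0.13 in complex I and 0.34 against -0.24 in complex IV.

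Other genes of oxidative phosphorylation were mixed with OmoMYC, and their counts are to be read beside the 25.7% of all tested genes called lower and 27.3% called higher. Of 47 assembly factors, 11 fell, near the share of all genes, and 3 rose, with a median of -0.08 (corrected 0.04). Those of complex I gave 5 falls of 14 and no rise, led by NDUFAF2 at -0.82 (FDR = 7.67e-05, corrected -0.47), and those of complex IV 4 falls and 3 rises of 20, with COA6, a copper factor, at -0.77 (corrected -0.27) and PET100 at 0.59 (corrected 0.52). Among 12 enzymes of the citric acid cycle 4 fell and 3 rose, again near the shares of all genes, with fumarase (FH) at -0.60 (corrected -0.32). Of 6 carriers and channels, SLC25A4, the ADP/ATP carrier, rose by 0.56 (corrected 0.61) and VDAC1 of the outer membrane fell by 0.58 (corrected -0.34), with 3 falls and 1 rise in all. Of 7 partner proteins, USMG5 of the ATP synthase was at -0.46 (corrected -0.19) and HIGD2A at 0.29 (corrected 0.23), with 3 falls and 1 rise. Cytochrome c (CYCS) was at -0.18 and not called.

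Of 11 regulators, 6 fell and 3 rose, and after correction 4 and 3 were called, beside the same shares of all genes. The coactivators PPARGC1A and PPARGC1B, which act with the nuclear respiratory factors, were at 0.66 (FDR = 0.000144) and 0.70 (FDR = 6.09e-05), or 0.86 and 0.49 corrected. TFAM, which packages and transcribes mitochondrial DNA, was at -0.53 (FDR = 0.00258), TFB1M, a methyltransferase of the mitochondrial ribosome, at -0.75 (FDR = 0.00216) and GABPA at -0.44 (FDR = 0.00303). After correction these were -0.16, -0.49 and -0.10, of which GABPA was no longer called (FDR = 0.067). NRF1 itself was at -0.04 and not called. MYCN, the amplified gene of the line, was at -0.28 (FDR = 0.0103). With dTAG47 none of the genes in these lists was called by edgeR's test. The factor for replicate pairs gave 2 citric acid cycle genes and 1 carrier called higher and 1 complex IV assembly factor called lower. Of all tested genes, 2.58% and 2.90% were called higher and lower with this factor. DESeq2 also called 1 complex IV assembly factor lower.

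Promoters of 300 bases, from 250 before to 50 after the gene start, were found for 62 of the 75 subunits in the RefSeq table. The NRF1 motif was in 15 of them (24.2%) against 6.98% of 27305 promoters and 12.6% of the 10819 promoters of tested genes. The ETS motif was in 20 (32.3%) against 12.2% and 20.9%, and the YY1 motif (AAGATGG followed by C) in 12 (19.4%) against 3.52% and 5.98%. The E-box was in 7 (11.3%) against 8.77% and 12.6%. All were searched on both strands.

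By call with OmoMYC, the NRF1 motif was in 4 of 22 subunits called lower, 1 of 6 called higher and 9 of 30 not called. The ETS motif was in 6, 2 and 11 of these and the YY1 motif in 3, 0 and 7. The E-box was in 0 of 22 called lower, in 1 of 6 called higher (ATP5G1, shown above) and in 6 of 30 not called. The 30 include NDUFB11, which was not tested in the OmoMYC experiment and whose promoter holds none of these motifs. A match is a description of these letters only.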

How the data were processed

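RNA-seq counts of 14 CHP-134 libraries were used. The authors trimmed reads with Cutadapt. The submitters' processing notes name STAR and hg19 for the alignment and featureCounts for the counts per gene. The deposited values are whole-number counts without normalization, and every column of counts maps to 1 sample (0 columns were not used). Annotation, strand setting and versions are not given in the sources used here. Where genes overlap, reads may therefore be shared.

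Each experiment was fitted alone, over all its genes, in R 4.3.3 with edgeR 4.0.16: filterByExpr, TMM, robust quasi-likelihood test, Benjamini-Hochberg, FDR 0.05. Libraries held 28060817 to 53451641 counts. CPM uses TMM-scaled totals, and RPKM also the canonical transcript length. P-values measure the spread between these replicates. DESeq2 1.42.0, the tool of the study, other scalings, other filters, a replicate block, glmTreat at 1.2-fold, a correction for GC content and transcript length (a spline with 5 degrees of freedom) and leaving out each library were alternatives. A split by replicate pairs was added after the libraries were seen. The fits were also run on simulated counts with a common spread and no trend on GC content or length. Such counts cannot show how the calls or the correction do under the trends seen here.

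The members, lists and tests were chosen with earlier results of these data known. Genes named are fixed core subunits, isoform sets, the largest called rise and fall in each complex and list, and MYC and MYCN. Further genes, such as NDUFB4, NDUFB8, NDUFAB1 and NDUFB9, and the 6 promoters were chosen after their values were seen. Marker and pathway lists were written from general knowledge. Gene positions in hg19 come from GENCODE, promoters from RefSeq (GRCh38.p14). Single values of 1 subunit and 1 other gene are not reported here.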

Additional observations from a re-analysis of the deposited data

Results flagged for a closer look

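In groups of 4 libraries, 3 members had a library that lay far from the others by Dixon's test, which picks about 1 group in 20 by chance. COX7B, a small complex IV subunit, was at 100.6 CPM in DMSO replicate 1 and at 109 to 111 CPM in the other DMSO libraries. COX4I1 was at 181 CPM in dTAG47 replicate 2 and at 205 to 209 CPM in the others. COX7A1 was at 1.29 CPM in dTAG47 replicate 1 and at 1.54 to 1.58 CPM in the others. Groups of 3 were not tested in this way.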

How the results depend on the processing

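With OmoMYC, leaving out each library in turn gave 15 to 37 subunits called lower and 2 to 8 higher. Without OmoMYC replicate 3 it was 15 and 2, beside 3014 and 2698 of all 13920 tested genes. Without OmoMYC replicate 1 it was 19 and 3, and without OmoMYC replicate 2 it was 25 and 4. Of all tested genes, 3077 of 13950 and 2986 of 13925 were called higher in those fits. Complex medians ran from -0.23 to -0.042 (I), -0.36 to -0.22 (II), -0.15 to -0.06 (III), -0.34 to -0.14 (IV) and -0.29 to -0.11 (V). Against a 1.2-fold threshold 3 were lower (SDHD, NDUFB6, NDUFV2) and 0 higher, beside 1720 and 2252 of all 13803 tested genes. The GC and length correction gave 12 lower and 18 higher, beside 3910 and 4187 of 13803 genes. Medians were then 0.012 (I), -0.089 (II), 0.054 (IV) and 0.055 (V). The replicate block gave 33 lower and 10 higher. With the correction it gave 14 and 19, beside 3946 and 4212 of 13803 genes. Medians were then 0.013 (I), -0.084 (II), 0.055 (IV) and 0.055 (V). The main fits did not treat libraries with the same replicate number as pairs. Deviations of such libraries correlated at 0.076, -0.070 and 0.293, and in the parental experiment at 0.0093, 0.109, 0.101 and 0.159. These few values cannot decide whether the numbers pair the samples.

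Signs turned under the correction, without and with the block, in ATP5C1 (0.051 and 0.051), ATP5G3 (0.058 and 0.059), COX6C (0.0064 and 0.010), COX7A2 (0.059 and 0.064), COX7A2L (0.14 and 0.14), NDUFA4 (0.11 and 0.11), NDUFA4L2 (-0.15 and -0.14), NDUFS7 (-0.11 and -0.11), NDUFS8 (-0.010 and -0.012), SDHA (-0.021 and -0.021), SDHB (0.029 and 0.030) and UQCRC1 (-0.14 and -0.14). Without single libraries, COX4I1 ran from -0.036 to 0.036, COX7A1 from -0.059 to 0.32, NDUFA4L2 from -0.091 to 0.34 and NDUFS1 from -0.017 to 0.025. The cause was not tested. DESeq2, other scalings and other filters moved neither count of called subunits by over 1.5 times and turned no sign among the named members.

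With dTAG47, leaving out each library gave 0 calls. The block gave 5 subunits higher, beside 306 of 14470 tested genes. With the correction it gave 6, beside 227, and the factor for replicate pairs gave 6, beside 374. Within replicates 3 and 4 alone it was 9 higher and 1 lower, beside 426 and 470 of 14528 tested genes. Signs turned under the correction, without and with the block, in ATP5G3 (0.070 and 0.068), COX7A2L (0.050 and 0.051), NDUFS1 (0.044 and 0.044) and NDUFV1 (-0.00091 and -0.0010), and without single libraries in ATP5G3 (-0.029 to 0.018), COX7A2L (-0.046 to 0.010) and NDUFS1 (-0.037 to 0.0055). COX4I2 was called under 5 alternatives.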
